A study of Mus musculus with 7 samples.

Results

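The subject is the set of nuclear genes for the mitochondrial respiratory chain and ATP synthase in mouse lung CD11b+ conventional dendritic cells (cDC2s). Genes were taken by symbol: every Nduf gene of the a, b, c, s and v series, the 4 Sdh genes, the Uqcr genes, the Cox4 to Cox8 genes and the Atp5 genes, with no use of measured values. This gave 89 genes of the 19939 that had a probeset with a single symbol. By complex they were 41 genes of complex I, 4 of complex II, 8 of complex III, 19 of complex IV and 17 of the ATP synthase, often called complex V. Ndufa4 and its relative Ndufa4l2, named as complex I genes, are counted in complex IV, where the protein is now placed. The Ndufaf genes, 7 of the 41, encode assembly factors of complex I and no subunit. RefSeq lists 96 protein-coding mouse genes that match these symbols, and the other 7, among them Ndufb4 and Cox7c, were not analysed here. No filter on low values was applied, so all 89 genes were tested.

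The respiratory chain moves electrons along the inner mitochondrial membrane. Complex I takes them from NADH and complex II from succinate, both hand them to ubiquinone, complex III passes them to cytochrome c, and complex IV gives them to oxygen. Complexes I, III and IV pump protons, and the ATP synthase uses the returning protons to turn a rotor and make ATP. Most subunits are encoded in the nucleus, and many of these are small accessory proteins around a catalytic core. In dendritic cells, activation through innate receptors is known to shift energy metabolism towards glycolysis, and the chain is also a source of reactive oxygen species used in signalling.

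Levels were measured on 7 Affymetrix Mouse Gene 1.0 ST arrays, each with RNA from a pool of lung cDC2s from 10 female C57Bl/6 mice, gated on CD11c, MHC-II and CD11b and against Ly6C and CD64. The groups were Irf3-deficient mice given 100 µg of house dust mite extract (Irf3 HDM, n = 3 arrays), wild type mice given the same extract (WT HDM, n = 2) and wild type mice given PBS (WT PBS, n = 2), all sorted 12 hours later. IRF3 is a DNA-binding factor best known for inducing interferon beta after innate sensing, and the comparisons address the response of cDC2s to the allergen and its dependence on this factor. Irf3-deficient mice given PBS were not analysed here, so an effect of genotype before treatment and one on the response cannot be told apart.

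Irf3 itself had levels of 8.26, 8.13 and 8.30 on the Irf3 HDM arrays, against 9.59 and 9.57 on the WT HDM arrays and 9.48 and 9.56 on the WT PBS arrays. It was lower in Irf3 HDM than in WT HDM cells by a log2 difference of -1.35 ± 0.10 (SE; adjusted p = 2.11e-06). All levels are the deposited log2 values, and array medians lay between 7.60 and 7.69. Across all genes, Pearson correlations were 0.995 to 0.997 within groups and 0.973 to 0.990 between groups. The cDC2 markers Itgax (CD11c) and H2-Ab1 (an MHC class II chain) lay at 12.63 to 13.06 and at 14.14 to 14.29 on all 7 arrays. Of the 14 cDC2 markers, 5 were higher (35.7%) and 1 lower (7.14%) in Irf3 HDM than in WT HDM cells. Over all genes these shares were 10.7% and 9.0%. In WT HDM minus WT PBS 2 of the 14 were higher (14.3%) and 5 lower (35.7%), against 8.35% and 9.23% of all genes. Itgax differed by 0.31 (adjusted p = 0.0179) and Itgam, the CD11b gene, by 0.72 (adjusted p = 0.000225) in Irf3 HDM minus WT HDM. The 1 lower marker there was Zbtb46 (-0.49, adjusted p = 0.00539). In WT HDM minus WT PBS, Zbtb46 was higher (0.38, adjusted p = 0.0403) and Itgam lower (-1.06, adjusted p = 1.94e-05). Markers of other cells were measured as well, without detection calls. Sftpc, the surfactant protein C gene of alveolar type II cells, lay at 11.88 to 12.03 on the Irf3 HDM arrays. It lay at 12.42 and 12.60 on the WT HDM arrays and at 13.09 and 13.10 on the WT PBS arrays. Epcam, an epithelial adhesion gene, had another order, at 10.78 to 10.83 on the Irf3 HDM arrays, 8.80 and 9.23 on the WT HDM arrays and 9.96 on both WT PBS arrays, and was higher in Irf3 HDM than in WT HDM cells by 1.78 (adjusted p = 8.6e-07). In pooled cells, fewer cells of a type and less RNA per cell cannot be told apart.

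In wild type cells, mite extract left nearly all of the 89 genes without a change that passed the test. Genes were tested by limma with Benjamini-Hochberg adjustment over all 19939 genes at a threshold of 0.05. No member was higher and 3 were lower in WT HDM than in WT PBS cells. Over all genes 17.6% passed, 8.35% higher and 9.23% lower, so the members' share of 3.37% lay below the background. Without adjustment, 12 of the 89 members and 5586 of the 19939 genes had a limma p under 0.05. The median difference of the members was -0.0055, against 0.029 over all genes. The 86 members that did not pass lay between -0.39 for Ndufa6 and 0.34 for Uqcrfs1. The 8 genes of complex III, the 17 of the ATP synthase and the 4 of complex II gave no call.

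The 3 lower genes were not core subunits. Cox6b2, the testis form of complex IV subunit 6B, had levels of 8.20 and 8.31 on the WT HDM arrays and 8.76 and 8.90 on the WT PBS arrays. The groups did not overlap, and the log2 difference was -0.58 (adjusted p = 0.00331). It passed under every alternative tried. Ndufaf4, an assembly factor of the quinone-side module of complex I, had levels of 7.27 and 7.42 in WT HDM cells against 7.98 and 7.64 in WT PBS cells, a difference of -0.47 (adjusted p = 0.0225). Ndufaf7, a methyltransferase that acts in complex I assembly, had levels of 8.28 and 8.19 in WT HDM cells against 8.87 and 8.51 in WT PBS cells, a difference of -0.45 (adjusted p = 0.0408). Both lie lower on every WT HDM array, but both calls were lost on leaving out single arrays. Without the first WT PBS array the differences were -0.30 for Ndufaf4 (adjusted p = 0.180) and -0.28 for Ndufaf7 (adjusted p = 0.298), and only 1 member passed; without the first WT HDM array they were -0.40 (adjusted p = 0.130) and -0.50 (adjusted p = 0.0746), and 5 members passed. Ndufaf7 also missed the threshold without the second WT HDM array (-0.40, adjusted p = 0.186) and without the second Irf3 HDM array (-0.45, adjusted p = 0.0585).

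**Figure D1:**
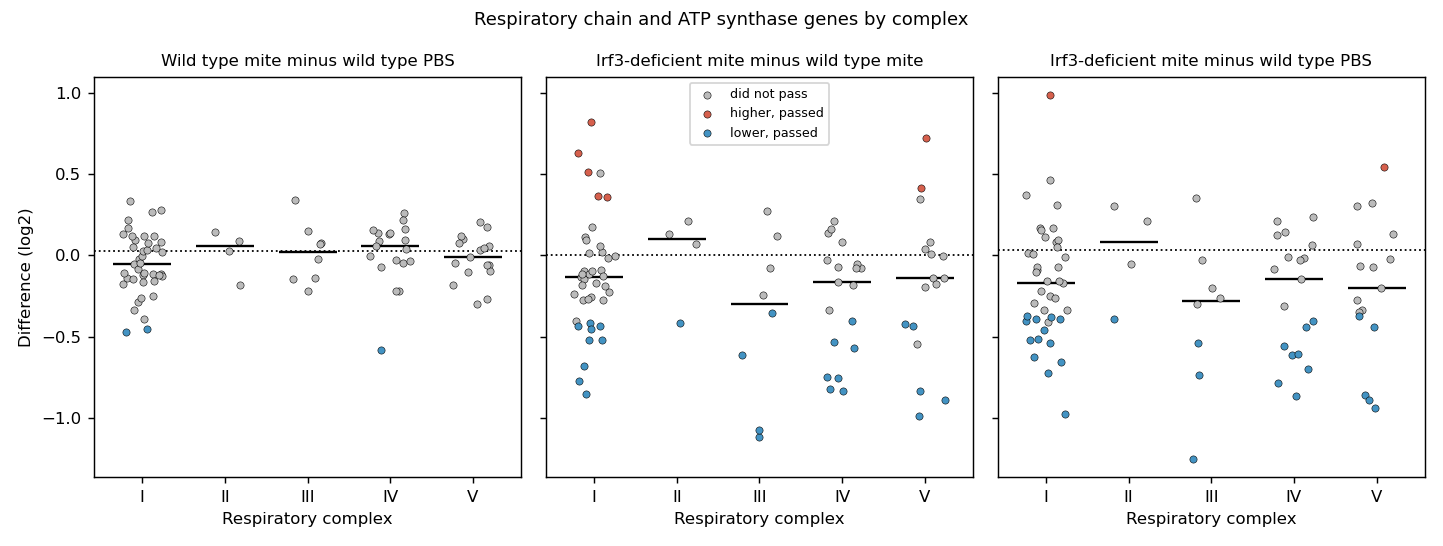
Log2 differences of the 89 genes by complex, 1 point per gene, in the 3 comparisons, with the median of each complex as a bar and the median of all genes as a dotted line. Coloured points passed the adjusted threshold: 3 lower in WT HDM minus WT PBS, 7 higher and 26 lower in Irf3 HDM minus WT HDM, and 2 higher and 30 lower in Irf3 HDM minus WT PBS.

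Irf3-deficient cells given mite extract showed lower levels of many respiratory chain genes than wild type cells given the same extract. Of the 89 members 26 were lower and 7 higher, with log2 differences from -1.11 (Uqcrh) to 0.82 (Ndufaf1) and a median of -0.14, against 0.0022 over all genes. This comparison shares the WT HDM arrays with the preceding one. The share called was 37.1%, where 19.7% of all genes passed. The background was 10.7% higher and 9.0% lower, and the members' shares were 7.87% higher and 29.2% lower. Among the genes whose mean level was above the median of all genes, where calls are more frequent, 19.5% were higher and 15.4% lower, and 80 of the members, with 7.50% higher and 30.0% lower, are among them. Every Irf3 HDM array was below every WT HDM array for 40 members (44.9%, against 20.5% of all genes) and above for 13 (14.6%, against 23.2%).

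The count depended on the second WT HDM array. Without it 21 members passed, 4 higher and 17 lower, while 12.8% of all genes did. Of the 33 called members 17 passed under every alternative tried, 15 of them lower (Uqcrh, Uqcrfs1, Uqcrq, Cox4i1, Cox5a, Cox6a1, Cox6b1, Cox7a2, Ndufa4, Ndufa1, Ndufa7, Ndufb9, Atp5j2, Atp5l and Atp5mpl) and 2 higher (Ndufaf1 and Atp5d).

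Promoters of 6 called members are shown here, 4 lower and 2 higher, because nuclear respiratory chain genes are known to share binding sites for NRF1, for ETS family factors such as GABPA (NRF2 in the mitochondrial literature) and for YY1. The RefSeq promoter table of the GRCm38.p6 build, from 250 bases before to 50 after each start, held 78 promoters of 73 members. Each sequence below runs 5′ to 3′ on the gene's own strand, and capitals mark a match on either strand to the NRF1 motif (with any base allowed at its sixth place), CCGGAAG (ETS and GABPA) or AAGATGGCG (YY1).
Uqcrh (lower), chr4:116075021-116075320, minus strand: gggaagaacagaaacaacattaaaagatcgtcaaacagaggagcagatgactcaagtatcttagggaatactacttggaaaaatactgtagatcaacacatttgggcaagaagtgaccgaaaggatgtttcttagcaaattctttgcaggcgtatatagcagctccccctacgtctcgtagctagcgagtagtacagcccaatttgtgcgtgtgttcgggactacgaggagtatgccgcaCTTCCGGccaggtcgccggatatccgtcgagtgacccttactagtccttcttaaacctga
Atp5j2 (lower), chr5:145191492-145191791, minus strand: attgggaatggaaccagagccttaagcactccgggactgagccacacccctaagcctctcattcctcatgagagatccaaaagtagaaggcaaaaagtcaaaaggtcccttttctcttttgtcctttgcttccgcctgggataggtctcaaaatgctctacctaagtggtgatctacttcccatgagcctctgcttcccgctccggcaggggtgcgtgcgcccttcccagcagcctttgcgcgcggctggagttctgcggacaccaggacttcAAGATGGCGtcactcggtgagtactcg
Cox6b1 (lower), chr7:30626065-30626364, minus strand: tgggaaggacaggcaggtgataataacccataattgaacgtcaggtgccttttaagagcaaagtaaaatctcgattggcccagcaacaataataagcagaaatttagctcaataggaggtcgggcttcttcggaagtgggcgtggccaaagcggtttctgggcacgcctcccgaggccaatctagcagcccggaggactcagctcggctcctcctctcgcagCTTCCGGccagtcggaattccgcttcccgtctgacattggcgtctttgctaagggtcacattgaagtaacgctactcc
Cox6a1 (lower), chr5:115348909-115349208, minus strand: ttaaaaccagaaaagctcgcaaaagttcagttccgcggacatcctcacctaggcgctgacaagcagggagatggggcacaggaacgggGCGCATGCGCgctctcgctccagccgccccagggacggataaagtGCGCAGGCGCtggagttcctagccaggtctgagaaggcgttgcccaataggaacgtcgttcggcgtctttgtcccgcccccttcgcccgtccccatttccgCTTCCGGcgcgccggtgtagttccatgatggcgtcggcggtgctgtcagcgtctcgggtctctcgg
Ndufaf1 (higher), chr2:119662785-119663084, minus strand: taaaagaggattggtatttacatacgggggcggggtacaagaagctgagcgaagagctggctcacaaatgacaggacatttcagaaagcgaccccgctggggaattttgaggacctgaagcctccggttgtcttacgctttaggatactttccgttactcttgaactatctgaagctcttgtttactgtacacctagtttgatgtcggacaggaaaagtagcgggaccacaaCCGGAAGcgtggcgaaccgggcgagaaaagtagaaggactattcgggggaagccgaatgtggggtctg
Ndufs7 (higher), chr10:80249199-80249498, plus strand: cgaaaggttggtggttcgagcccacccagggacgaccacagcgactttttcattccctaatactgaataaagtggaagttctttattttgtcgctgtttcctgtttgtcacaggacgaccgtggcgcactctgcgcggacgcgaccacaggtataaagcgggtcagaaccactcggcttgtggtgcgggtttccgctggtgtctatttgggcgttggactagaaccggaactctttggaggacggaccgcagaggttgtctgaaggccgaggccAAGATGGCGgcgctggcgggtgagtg

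The Uqcrh and Cox6b1 promoters held the ETS letters (as CTTCCGG, the other strand), those of Atp5j2 and Ndufs7 the YY1 letters, and that of Ndufaf1 the ETS letters. The Cox6a1 promoter held 2 NRF1 matches, the first of them the exact palindrome with A-T at its centre, and 1 ETS match. The promoters shown were picked among called members with 1 promoter that held a motif, so a match in each was fixed in advance. Called members such as Uqcrfs1, Ndufa1 and Atp5d had no match to any motif searched. The NRF1 motif was in 24.4% of the 78 member promoters and in 4.60% of all 32851 promoters of the table, and its exact palindrome, a subset of it, in 8.97% against 0.971%. CCGGAAG was in 23.1% against 8.86%, AAGATGGCG in 8.97% against 1.40%, and the ERRA motif AAGGTCA in 8.97% against 4.72%. Among the 24 promoters of lower members the NRF1 motif was in 29.2%, against 23.9% of the 46 of members that did not pass, and CCGGAAG was in 20.8% against 26.1%. Each of these 3 motifs was in 12.5% of the 8 promoters of higher members. The median GC content was 58.0% over member promoters and 52.7% over all promoters. The shares are descriptions without a test.

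Complex III had 4 of 8 genes lower and none higher, with a median difference of -0.30. Uqcrh, the hinge protein that helps cytochrome c1 meet cytochrome c, had levels of 10.58, 10.75 and 10.72 in Irf3 HDM cells, against 11.98 and 11.61 in WT HDM cells and 12.00 and 11.86 in WT PBS cells. The 3 Irf3-deficient arrays lay below all 4 wild type arrays. The difference from WT HDM was -1.11 ± 0.12 (SE), 2.16-fold lower with a 95% confidence interval of 1.81 to 2.58 (adjusted p = 3.47e-05). Uqcrfs1, the Rieske iron-sulfur protein of the catalytic core, had levels of 8.47, 8.48 and 8.63 in Irf3 HDM cells, against 9.36 and 9.85 in WT HDM cells and 9.49 and 9.03 in WT PBS cells. Again no wild type array reached down to the Irf3-deficient ones, although the wild type arrays spread more widely. It was 2.10-fold lower than in WT HDM cells (1.65 to 2.68, adjusted p = 0.000459). The small subunit Uqcrq, at 9.43, 9.48 and 9.33 in Irf3 HDM cells and 9.89 and 10.16 in WT HDM cells, differed by -0.61 ± 0.11 (adjusted p = 0.00199).

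Uqcr10, another small subunit, differed by -0.35 (adjusted p = 0.0331), a call lost without either WT HDM array or without the second or the third Irf3 HDM array (adjusted p 0.0940 to 0.163). The other complex III members did not pass. The core proteins Uqcrc1 and Uqcrc2 had differences of 0.12 and 0.27, and the small subunits Uqcrb and Uqcr11 of -0.24 and -0.08. Cyc1, the cytochrome c1 gene of complex III, has a symbol outside the rule and is not counted among the 8. It differed by -0.016 from WT HDM cells (adjusted p = 0.952) and by -0.105 from WT PBS cells (adjusted p = 0.598). The mean level over the 8 genes was 10.52 to 10.60 on the Irf3 HDM arrays, 10.94 and 10.95 on the WT HDM arrays and 10.90 and 10.96 on the WT PBS arrays.

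**Figure D2:**
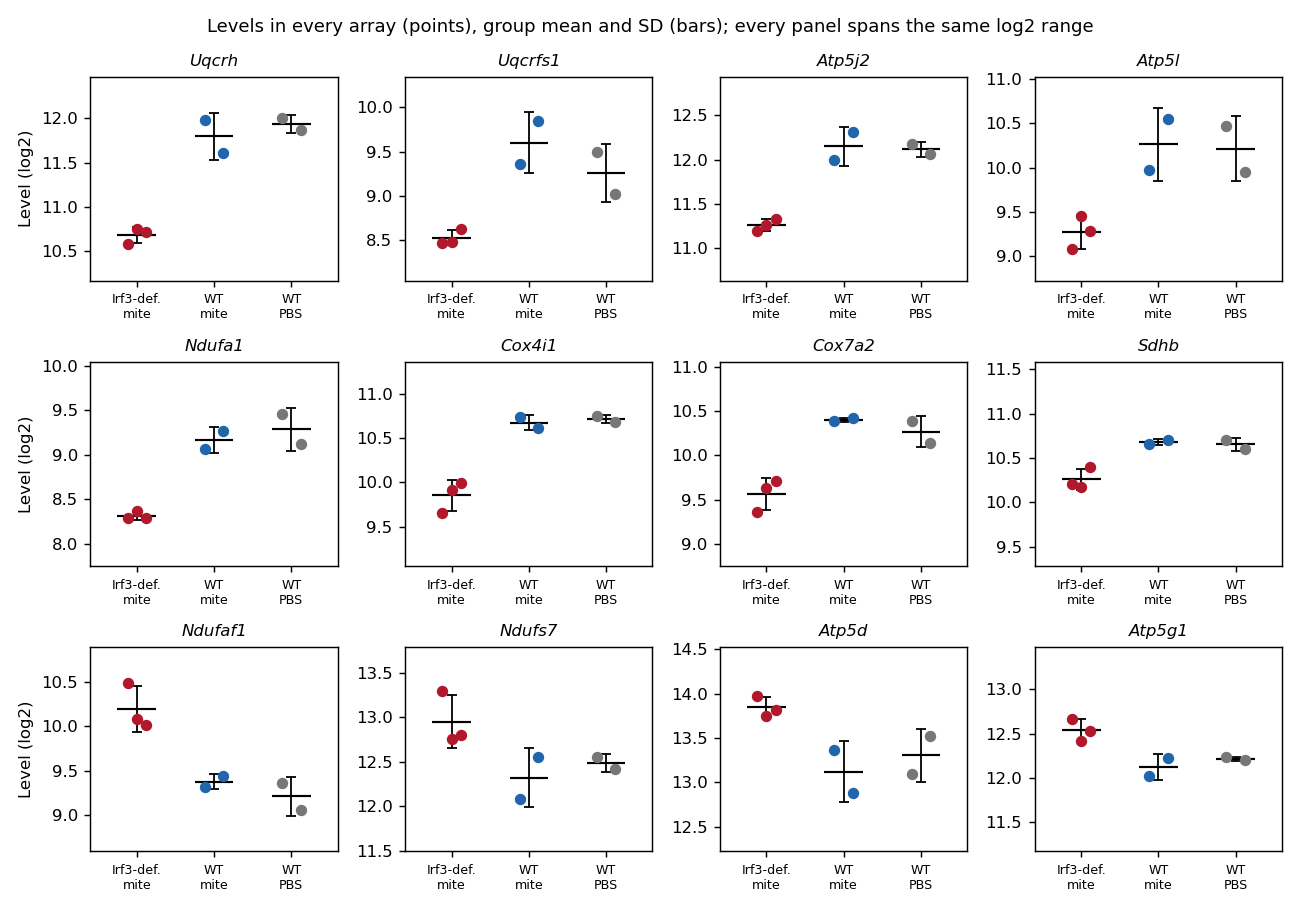
Log2 levels of 12 members on every array, with group mean and SD as bars and panels that all span the same log2 range. Uqcrh, Uqcrfs1, Atp5j2, Atp5l, Ndufa1, Cox4i1, Cox7a2 and Sdhb have their 3 Irf3 HDM points below the 4 wild type points; for Ndufaf1, Ndufs7, Atp5d and Atp5g1 they lie above.

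In complex IV the lower genes were mostly usual isoforms. Of the 10 usual or single-form subunits 6 were lower and none higher (median -0.55), and of the 9 genes for tissue forms and relatives 1 was lower (median -0.07). The tissue forms and relatives were mostly dimmer, with mean levels from 4.91 (Cox7b2) to 8.89 (Cox7a2l). Those of the usual forms ran from 8.85 (Ndufa4) to 13.36 (Cox6c). A drop is harder to see at a low level, and the part of level in these counts was not tested. Cox4i1, the usual form of subunit 4, had levels of 9.65, 9.91 and 9.99 in Irf3 HDM cells, against 10.73 and 10.61 in WT HDM cells and 10.75 and 10.68 in WT PBS cells. All Irf3-deficient values were below all wild type values, and it was 1.77-fold lower than in WT HDM cells (1.48 to 2.11, adjusted p = 0.000333). Its partner Cox4i2, the oxygen-responsive form, had 8.28, 8.25 and 8.31 in Irf3 HDM cells, 8.15 and 7.99 in WT HDM cells and 8.12 and 8.46 in WT PBS cells, a difference of 0.21 from WT HDM that did not pass (adjusted p = 0.291).

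Cox7a2, the usual form of subunit 7A, had levels of 9.36, 9.63 and 9.71 in Irf3 HDM cells against 10.38 and 10.41 in WT HDM cells and 10.39 and 10.14 in WT PBS cells. It was 1.78-fold lower than in WT HDM cells (1.47 to 2.15, adjusted p = 0.000483). Cox7a1, the heart and muscle form, was also lower, at 7.64, 7.59 and 7.85 in Irf3 HDM cells against 8.01 and 8.18 in WT HDM cells (-0.40, adjusted p = 0.0227). That call was lost without the second WT HDM array (-0.32, adjusted p = 0.201), without the first Irf3 HDM array (-0.37, adjusted p = 0.0668) and without the second (-0.35, adjusted p = 0.0963). Cox7a2l, a related factor of respiratory supercomplexes, had 8.69, 8.67 and 8.54 in Irf3 HDM cells against 9.06 and 8.88 in WT HDM cells, and did not pass (-0.34, adjusted p = 0.0668); the mean of its 2 probesets did (-0.55, adjusted p = 0.00652).

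Cox6a1 and Cox6b1, the usual forms of subunits 6A and 6B, were lower too. Cox6a1 had levels of 10.68, 10.88 and 10.84 in Irf3 HDM cells against 11.32 and 11.41 in WT HDM cells (-0.57 ± 0.10, adjusted p = 0.00174). Cox6b1 had 11.96, 11.94 and 12.12 against 12.47 and 12.61 in WT HDM cells (-0.53 ± 0.09, adjusted p = 0.00115). Their muscle and testis forms Cox6a2 and Cox6b2 had differences of -0.05 (adjusted p = 0.878) and -0.03 (adjusted p = 0.927). Ndufa4, whose protein sits in complex IV, had 8.27, 8.49 and 8.47 in Irf3 HDM cells against 9.16 and 9.17 in WT HDM cells (-0.75 ± 0.12, adjusted p = 0.000699), while its hypoxia-induced relative Ndufa4l2 had a difference of -0.16 (adjusted p = 0.485). Cox5a, which joins subunit 4 on the matrix side, was the sixth lower gene (-0.75, adjusted p = 0.000702). Cox5b, Cox6c, Cox7b and Cox8a did not pass, with differences from -0.18 to 0.14, and neither did Cox8b (0.16), Cox8c (-0.07) or Cox7b2 (-0.07). Whether the difference of a usual form differs from that of its tissue form was not tested.

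In the ATP synthase 5 of 17 genes were lower and 2 higher. The lower ones lay mainly in the membrane part, Fo, where 4 of 8 passed lower. Atp5j2, the f subunit, had levels of 11.20, 11.26 and 11.33 in Irf3 HDM cells, against 11.99 and 12.31 in WT HDM cells and 12.18 and 12.06 in WT PBS cells. The Irf3-deficient arrays lay close together and below all others, and the gene was 1.85-fold lower than in WT HDM cells (1.58 to 2.17, adjusted p = 8.37e-05). Atp5l, the g subunit at the interface of synthase dimers, had 9.08, 9.46 and 9.29 in Irf3 HDM cells, against 9.97 and 10.55 in WT HDM cells and 10.47 and 9.96 in WT PBS cells (1.98-fold lower than in WT HDM cells, 1.50 to 2.62, adjusted p = 0.00219). Atp5mpl, a small proteolipid subunit, had 9.23, 9.42 and 9.47 in Irf3 HDM cells against 9.95 and 10.47 in WT HDM cells (-0.83 ± 0.16, adjusted p = 0.00258). Atp5o, the OSCP subunit that ties the stalk to the catalytic head, differed by -0.42 (adjusted p = 0.0112), a call lost without the first or the second WT HDM array (adjusted p = 0.0617 and 0.0505).

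The genes for the c subunit of the proton-driven ring, which encode the same mature protein, gave different results. Atp5g1 was higher, with levels of 12.67, 12.42 and 12.53 in Irf3 HDM cells against 12.02 and 12.23 in WT HDM cells (0.42 ± 0.10, adjusted p = 0.00906), and the call was lost without the first WT HDM array (0.31, adjusted p = 0.0915). Atp5g3 was lower, with 10.72, 10.91 and 11.00 against 11.26 and 11.36 in WT HDM cells (-0.43 ± 0.10, adjusted p = 0.0107), and the call was lost without the second WT HDM array (-0.38, adjusted p = 0.0855). Atp5g2 had 12.26, 12.32 and 12.34 against 12.35 and 12.27 in WT HDM cells (-0.01, adjusted p = 0.979).

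Atp5d, the delta subunit of the rotor, was the other higher gene. Its levels were 13.97, 13.75 and 13.82 in Irf3 HDM cells, against 13.37 and 12.88 in WT HDM cells and 13.09 and 13.52 in WT PBS cells, and it was 1.65-fold higher than in WT HDM cells (1.33 to 2.05, adjusted p = 0.00298). The catalytic head genes Atp5a1 and Atp5b had differences of -0.14 and 0.08 and did not pass. The same held for the rotor subunits Atp5c1 (-0.14) and Atp5e (-0.54, adjusted p = 0.0527). The remaining stalk and membrane genes Atp5h, Atp5j, Atp5pb, Atp5k and Atp5md lay between -0.19 (Atp5j) and 0.35 (Atp5h).

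In complex I 9 of 41 genes were lower (22.0%) and 5 higher (12.2%), against 9.0% and 10.7% of all genes. The accessory subunits held all of the lower calls in Irf3 HDM minus WT HDM. Of the 28 accessory genes 9 were lower (32.1%) and 2 higher (7.14%). Of the 6 core subunits 1 was higher (16.7%) and none lower, and of the 7 assembly factors 2 were higher (28.6%). Ndufa1, an accessory subunit of the membrane arm, had levels of 8.29, 8.37 and 8.29 in Irf3 HDM cells, against 9.06 and 9.27 in WT HDM cells and 9.46 and 9.12 in WT PBS cells. The Irf3-deficient arrays lay together below all wild type arrays, and the gene was 1.80-fold lower than in WT HDM cells (1.50 to 2.17, adjusted p = 0.000345). Ndufb9, which holds an acyl carrier protein at the membrane arm, had 10.14, 10.29 and 10.30 in Irf3 HDM cells against 10.93 on both WT HDM arrays (1.60-fold lower, 1.37 to 1.87, adjusted p = 0.000494). Ndufa7, of the peripheral arm, had 9.66, 9.66 and 9.74 against 10.17 and 10.24 in WT HDM cells (-0.52 ± 0.10, adjusted p = 0.00254).

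The other 6 lower accessory genes each lost the call without at least 1 array. Ndufs6, a zinc-binding subunit (-0.77, adjusted p = 0.00416), and Ndufs5, on the intermembrane side (-0.52, adjusted p = 0.0116), did so without the second WT HDM array (adjusted p = 0.0644 and 0.146). Ndufa3 (-0.45) did so without the first WT HDM or the second Irf3 HDM array (adjusted p = 0.141 and 0.0554), and Ndufa5 (-0.43) without the second WT HDM or the first Irf3 HDM array (adjusted p = 0.211 and 0.0786). Ndufa9, near the quinone site (-0.43), did so without the first WT HDM or the third Irf3 HDM array (adjusted p = 0.105 and 0.0512), and Ndufa12 (-0.42) without either WT HDM array or without the first or the third Irf3 HDM array (adjusted p 0.0527 to 0.262).

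Ndufaf1, an assembly factor of the membrane arm, had the largest positive difference of the 89 genes. Its levels were 10.49, 10.08 and 10.02 in Irf3 HDM cells, against 9.32 and 9.44 in WT HDM cells and 9.37 and 9.06 in WT PBS cells, so that all 3 Irf3-deficient arrays lay above the wild type ones. It was 1.76-fold higher than in WT HDM cells (1.41 to 2.21, adjusted p = 0.00171). Ndufs7, the core iron-sulfur subunit next to the quinone site, had 13.29, 12.76 and 12.80 in Irf3 HDM cells, against 12.09 and 12.56 in WT HDM cells and 12.56 and 12.42 in WT PBS cells (1.55-fold higher than in WT HDM cells, 1.21 to 1.97, adjusted p = 0.0145). Without the first WT HDM array its difference was 0.39 (adjusted p = 0.154).

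Ndufb3, Ndufb2 and Ndufaf4 were the other higher complex I genes. Ndufb3, an accessory subunit of the membrane arm, had 8.35, 8.20 and 8.19 in Irf3 HDM cells against 7.91 and 7.55 in WT HDM cells (0.51, adjusted p = 0.0117), and without the second WT HDM array 0.33 (adjusted p = 0.183). Ndufb2 differed by 0.36 (adjusted p = 0.0200), a call lost without either WT HDM array or without the second Irf3 HDM array (adjusted p 0.0795 to 0.128). Ndufaf4 had 7.71, 7.67 and 7.76 in Irf3 HDM cells against 7.27 and 7.42 in WT HDM cells (0.37, adjusted p = 0.0435), a call lost without any single one of these 5 arrays (adjusted p 0.0835 to 0.249). The core subunits Ndufs1, Ndufs3, Ndufs8, Ndufv1 and Ndufv2 did not pass, with differences from -0.11 to 0.18. The 17 accessory genes that did not pass lay between -0.40 for Ndufc1 and 0.51 for Ndufb11, and the 5 such assembly factors between -0.27 for Ndufaf7 and -0.02 for Ndufaf5.

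Complex II, the succinate dehydrogenase shared with the citric acid cycle, had 1 of 4 genes lower. Sdhb, its iron-sulfur subunit, had levels of 10.21, 10.18 and 10.40 in Irf3 HDM cells, against 10.65 and 10.70 in WT HDM cells and 10.70 and 10.60 in WT PBS cells. It was 1.33-fold lower than in WT HDM cells (1.14 to 1.56, adjusted p = 0.0136). The call was lost without the second WT HDM array (-0.39, adjusted p = 0.0865) and without the second Irf3 HDM array (-0.38, adjusted p = 0.0643). The flavoprotein Sdha, at 11.66, 11.72 and 11.76 in Irf3 HDM cells and 11.71 and 11.46 in WT HDM cells, gave a ratio whose 95% interval ran from 0.942 to 1.27. The intervals for the membrane anchors Sdhc and Sdhd ran from 0.888 to 1.24 and from 0.952 to 1.41, and none of the 3 passed.

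**Figure D3:**
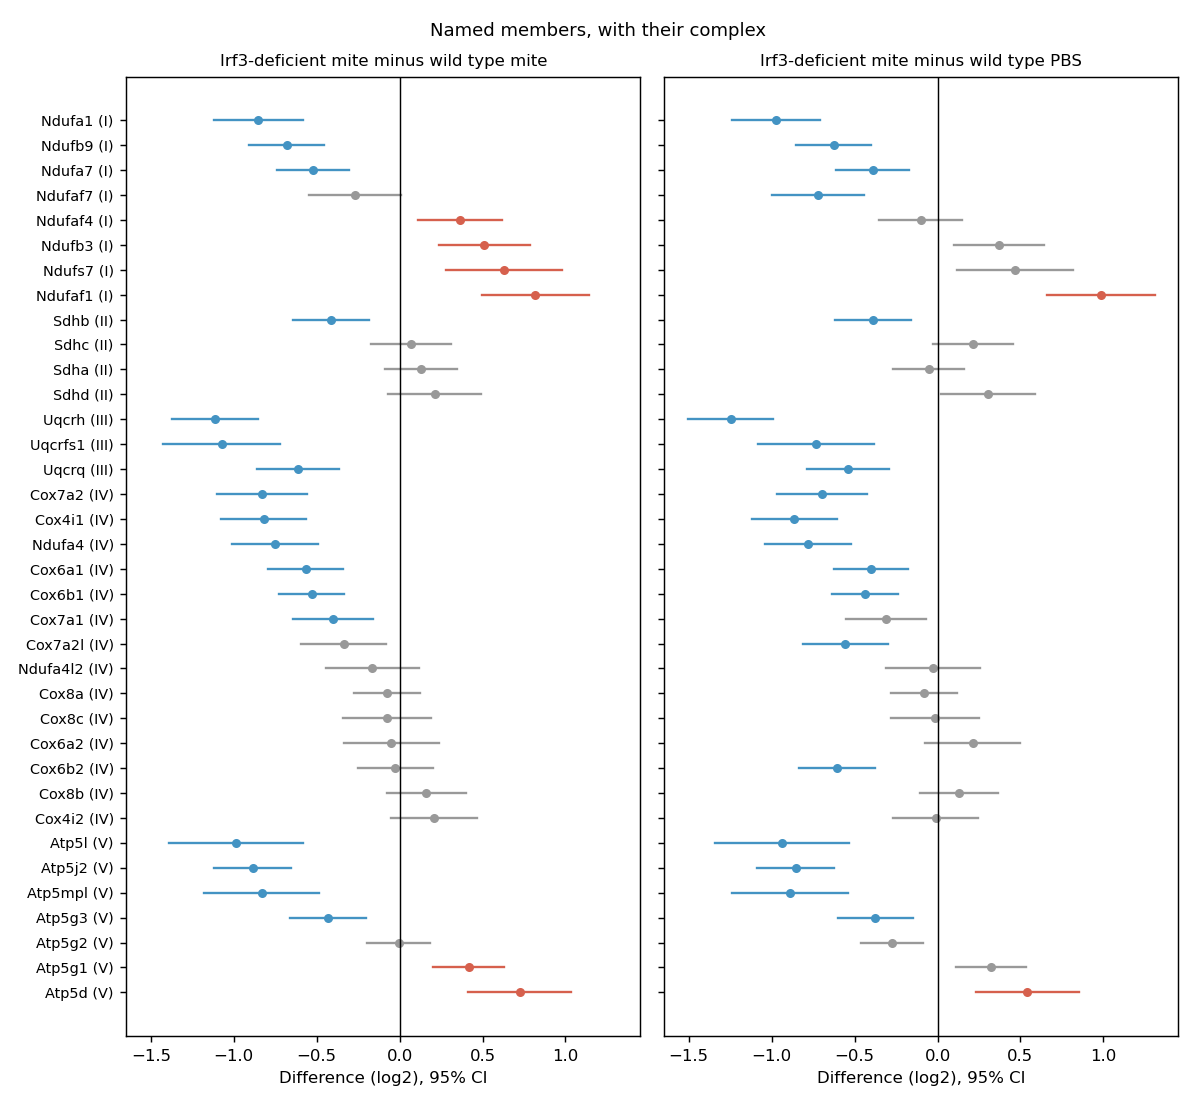
Log2 differences of the named members with 95% confidence intervals, ordered by complex, in Irf3 HDM minus WT HDM (left) and Irf3 HDM minus WT PBS (right). Coloured points passed the adjusted threshold, and the intervals of Uqcrh and Ndufaf1 lie farthest from 0 on the lower and on the higher side in the left panel, at fold intervals of 1.81 to 2.58 and 1.41 to 2.21.

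The comparison of Irf3 HDM with WT PBS cells differs in both genotype and treatment, which cannot be told apart in it, and it shares the Irf3 HDM arrays with the comparison above. Of the 89 genes 30 were lower and 2 higher, where 10.8% of all genes passed, 5.89% higher and 4.90% lower. The members' median difference was -0.20, against 0.036 over all genes. Every Irf3 HDM array was below every WT PBS array for 47 members (52.8%, against 17.0% of all genes) and above for 14 (15.7%, against 22.0%). By complex 13 of 41 were lower in complex I, 1 of 4 in II, 3 of 8 in III, 8 of 19 in IV and 5 of 17 in the ATP synthase. Those of complex I were 11 of 28 accessory genes (39.3%), 1 of 6 core subunits (16.7%) and 1 of 7 assembly factors (14.3%). The core subunit was Ndufs8 (-0.37, adjusted p = 0.0204). Its call was lost with the replicate block and without the second Irf3 HDM array or either WT PBS array. The 57 members that did not pass lay between -0.41 and 0.46. The 2 higher genes were Ndufaf1 (0.99, adjusted p = 0.00127) and Atp5d (0.54, adjusted p = 0.0297).

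Side by side, Uqcrh differed by -1.11 from WT HDM and by -1.25 from WT PBS cells (adjusted p = 5.96e-05 for the second). Ndufa1 differed by -0.85 and -0.97 (adjusted p = 0.000399), and Cox4i1 by -0.82 and -0.86 (adjusted p = 0.000648). Atp5j2 differed by -0.89 and -0.86 (adjusted p = 0.000354), and Uqcrfs1 by -1.07 and -0.73 (adjusted p = 0.0120). Both values of these genes are lower in Irf3 HDM cells, whichever wild type group is used. Cox6b2 and Ndufaf7 passed lower against WT PBS (-0.61, adjusted p = 0.00291, and -0.72, adjusted p = 0.00323) and not against WT HDM. Cox7a2l also passed here (-0.56, adjusted p = 0.00971).

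This comparison leaned on the first WT PBS array, without which 9 members passed, 1 higher and 8 lower, with 3.76% of all genes. Uqcrh, Cox4i1, Ndufa1, Ndufa4, Ndufb9, Atp5j2 and Cox6b2 were lower, and Ndufaf1 higher, under every alternative tried. Calls named here that the removal ended are those of Atp5d (0.33, adjusted p = 0.366), Uqcrfs1 (-0.50, adjusted p = 0.182), Ndufaf7 (-0.54, adjusted p = 0.0575) and Cox7a2l (-0.42, adjusted p = 0.132). The Atp5d call was also lost without any one Irf3 HDM array (adjusted p 0.0507 to 0.0668).

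Set against all 4 wild type arrays at once, the 3 Irf3 HDM arrays were lower than every wild type array for 36 of the 89 members (40.4%), where 6.75% of all genes showed this. They were higher than every wild type array for 8 members (8.99%), against 9.48% of all genes. The lower genes numbered 16 in complex I, 1 in II, 5 in III, 9 in IV and 5 in the ATP synthase. The mean level over the 89 genes was 10.08 to 10.12 on the Irf3 HDM arrays, 10.27 and 10.28 on the WT HDM arrays and 10.28 and 10.32 on the WT PBS arrays. The Irf3-deficient arrays lay together below both wild type groups.

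Many respiratory chain subunits are known to have short transcripts, and so are the cytosolic ribosomal proteins, which were described beside them for that reason. Of 53 such ribosomal genes, 19 were lower (35.8%) and 1 higher (1.89%) in Irf3 HDM than in WT HDM cells (median -0.23). Over all genes these shares were 9.0% and 10.7%. Against WT PBS 29 of the 53 were lower (54.7%) and none higher (median -0.37), where 4.90% of all genes were lower. The Irf3 HDM arrays were below all 4 wild type arrays for 27 of the 53 (50.9%), against 6.75% of all genes. Rps29, a small-subunit protein, had levels of 10.99, 11.29 and 11.33 in Irf3 HDM cells, against 12.23 and 12.38 in WT HDM cells and 12.62 and 12.27 in WT PBS cells. Its difference from WT HDM was -1.10 ± 0.13 (adjusted p = 6.21e-05), of the size seen for Uqcrh. The mean level over the 53 genes was 11.81 to 11.99 on the Irf3 HDM arrays, 12.18 and 12.21 on the WT HDM arrays and 12.34 and 12.42 on the WT PBS arrays. The labels give no RNA quality, so the part of the RNA preparation in the members' differences was not tested.

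**Figure D4:**
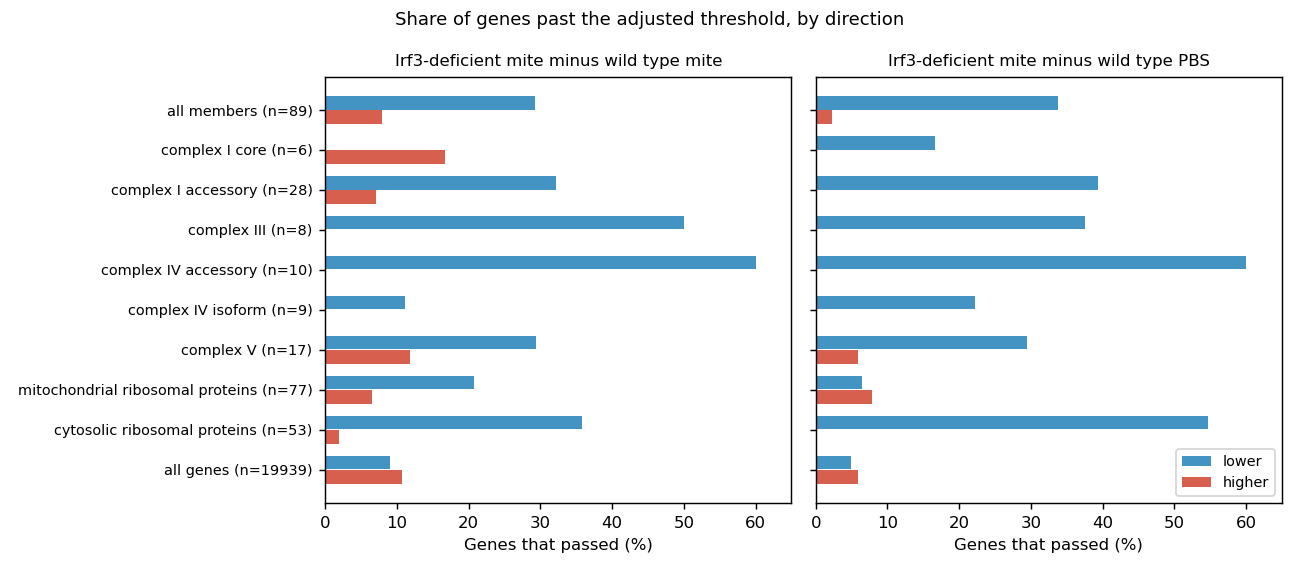
Share of genes past the adjusted threshold, lower and higher, for the members, their classes, 2 ribosomal gene lists and all genes, in Irf3 HDM minus WT HDM (left) and Irf3 HDM minus WT PBS (right). In the left panel 29.2% of the members and 60.0% of the usual complex IV subunits were lower, against 9.0% of all genes.

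The other mitochondrial lists did not all follow the chain. Over all genes 10.7% were higher and 9.0% lower in Irf3 HDM minus WT HDM, and 8.35% and 9.23% in WT HDM minus WT PBS. In Irf3 HDM minus WT PBS these shares were 5.89% and 4.90%. Of 77 mitochondrial ribosomal protein genes, 16 were lower (20.8%) and 5 higher (6.49%) in Irf3 HDM than in WT HDM cells. Against WT PBS, 5 were lower (6.49%) and 6 higher (7.79%) in Irf3 HDM cells. Of the same genes, 11 were higher (14.3%) and none lower in WT HDM than in WT PBS cells. Their median in Irf3 HDM minus WT HDM was -0.138, against -0.139 for the members. The Irf3 HDM arrays were below all 4 wild type arrays for 23 of the 77 (29.9%), against 6.75% of all genes. Of 17 genes of pyruvate dehydrogenase and the citric acid cycle 4 were higher (23.5%) and 1 lower (5.88%) in Irf3 HDM than in WT HDM cells. Idh3a, the catalytic subunit of NAD-linked isocitrate dehydrogenase, was higher by 0.95 (adjusted p = 4.55e-05). Of 7 other enzymes that feed electrons into the chain 2 were higher (28.6%) and 1 lower (14.3%). Of 6 carriers and porins 2 were higher (33.3%) and none lower.

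Of 43 assembly factors with symbols outside the rule, 6 were higher (14.0%) and 8 lower (18.6%) in Irf3 HDM than in WT HDM cells. Over all genes these shares were 10.7% and 9.0%. In WT HDM minus WT PBS 11 of the 43 were higher (25.6%) and 1 lower (2.33%), against 8.35% and 9.23% of all genes. Sco1, a copper chaperone for complex IV, had levels of 8.09, 8.01 and 8.05 in Irf3 HDM cells, 9.70 and 9.97 in WT HDM cells and 7.93 and 7.81 in WT PBS cells. It stood high only on the WT HDM arrays, by 1.96 over WT PBS (adjusted p = 2.87e-07), and was lower in Irf3 HDM than in WT HDM cells, with a difference of -1.78 (adjusted p = 3.93e-07). Cmc2, another complex IV factor, had 9.77, 9.47 and 9.65 in Irf3 HDM cells, 10.72 and 10.47 in WT HDM cells and 8.99 and 9.05 in WT PBS cells, a difference of 1.58 between the wild type groups (adjusted p = 3.83e-06). The complex IV subunits themselves gave 1 call in that comparison, Cox6b2.

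In Irf3 HDM minus WT HDM 10.7% of all genes were higher and 9.0% lower. Of 19 regulators of mitochondrial transcription and biogenesis 7 were higher (36.8%) and 2 lower (10.5%) in this comparison. Among the higher ones, Tfb2m (0.84, adjusted p = 0.000990) and Ppargc1b (0.55, adjusted p = 0.00737) had the smallest p. The lower ones were Tfam, which packages and transcribes mitochondrial DNA (-0.91, adjusted p = 0.00851), and Slirp, which stabilises mitochondrial mRNAs (-1.04, adjusted p = 0.000293). Tfam had levels of 7.09, 7.23 and 6.92 in Irf3 HDM cells, against 7.86 and 8.14 in WT HDM cells and 8.32 and 7.36 in WT PBS cells. Of the 13 subunits encoded in mitochondrial DNA 2 had a probeset of their own. ND3 of complex I was higher in Irf3 HDM than in WT HDM cells by 0.32 (adjusted p = 0.0132), and COX2 of complex IV differed by -0.01 (adjusted p = 0.952). Cycs, the mobile cytochrome c, was higher in WT HDM than in WT PBS cells by 0.51 (adjusted p = 0.00181), and its difference of -0.12 between Irf3 HDM and WT HDM cells did not pass (adjusted p = 0.405).

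Markers of other cells also moved with the groups. Over all genes 10.7% were higher and 9.0% lower in Irf3 HDM minus WT HDM, and 8.35% and 9.23% in WT HDM minus WT PBS. Of 14 monocyte and macrophage markers, 8 were higher (57.1%) and 2 lower (14.3%) in Irf3 HDM than in WT HDM cells. In WT HDM minus WT PBS 1 of them was higher (7.14%) and 11 lower (78.6%). The higher one was Fcgr1, the gene of CD64, against which the cells were gated (1.79, adjusted p = 2.19e-05). Fcgr1 was lower in Irf3 HDM than in WT HDM cells (-1.67, adjusted p = 2.23e-05). In Irf3 HDM minus WT PBS 5.89% of all genes were higher and 4.90% lower. Of the 14 markers none was higher and 4 were lower (28.6%) in that comparison, Apoe by the most (-3.03, adjusted p = 1.41e-06). Their mean level was 9.97 to 10.09 on the Irf3 HDM arrays, 9.31 and 9.68 on the WT HDM arrays and 10.46 and 10.74 on the WT PBS arrays. Of 16 markers of epithelial, endothelial, lymphoid and other cells, 1 was higher (6.25%) and 3 lower (18.8%) in Irf3 HDM than in WT HDM cells. Their mean level was 8.21 to 8.27 on the Irf3 HDM arrays, 8.18 and 8.31 on the WT HDM arrays and 8.40 and 8.41 on the WT PBS arrays. Log2 array levels have no 0 that marks absence, and the part of other cells in the members' differences was not tested.

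**Figure D5:**
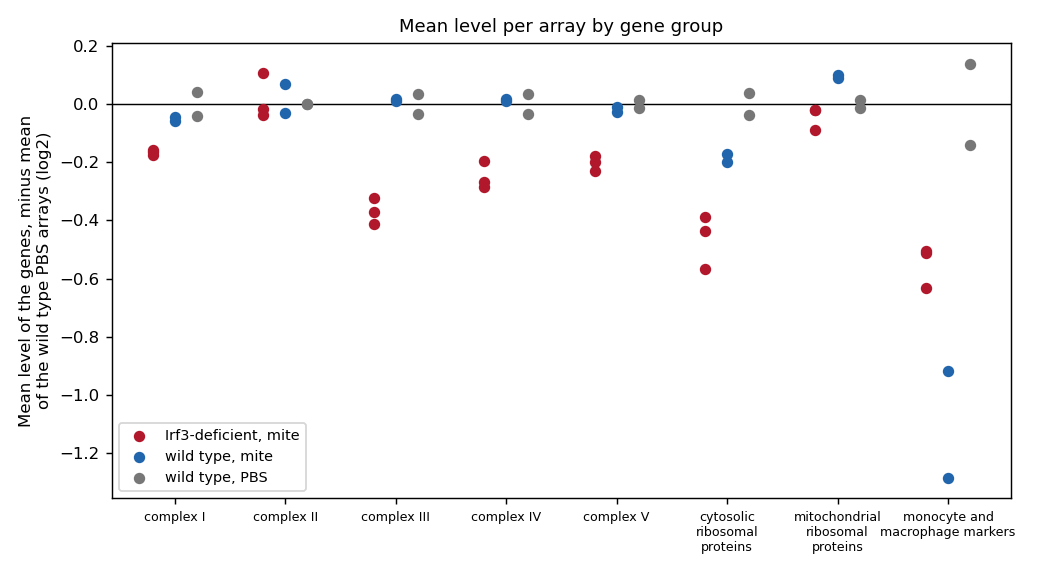
Mean log2 level per array over the genes of each complex, of the ribosomal lists and of the monocyte and macrophage markers, minus the mean of the WT PBS arrays. The 3 Irf3 HDM points lie below all wild type points for complexes I, III, IV and V and for both ribosomal lists. For the mitochondrial ribosomal list the margin is small, with a highest Irf3 HDM mean of 9.191 and a lowest wild type mean of 9.195. For complex II the points of the groups overlap.

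For most members 1 probeset stands behind each value. The 17 members with several had 42 probesets in all, and in Irf3 HDM minus WT HDM their signs differed for 2 genes, Atp5md and Atp5pb, both near 0. The 6 probesets of Atp5l gave differences between -1.03 and -0.95, and the 2 of Cox7a2l gave -0.34 and -0.77. RefSeq lists 19 pseudogenes with matching symbols, and the probes may also bind copies of these short genes, so a value is uncertain as to which copy it reads.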

How the data were processed

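Per the labels, mRNA was isolated from each cell pool by the protocol of the Immgen consortium and hybridised to Mouse Gene 1.0 ST arrays. The authors deposited 1 table of log2 values, with 35556 probesets. Per the submitters' processing notes, RMA and oligo were used with R 3.2.1, in an order and with roles not stated. RMA usually includes quantile normalisation, after which a change shared by most transcripts cannot be seen. No detection calls, scan dates or genome build were given in the sources used here, and the number of arrays limits the precision.

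Probesets were named through GEO's platform annotation: 21789 carried 1 symbol and were used, 1621 carried several and 12146 were not listed. Symbols were updated through RefSeq (GRCm38.p6), which matched 19856 of 19939 genes. Where a gene had several probesets (998 genes), the brightest on average represented it. A limma 3.58.1 model (R 4.3.3; eBayes with an intensity trend) estimated the group means from all 7 arrays together, with 4 residual and 8.34 prior degrees of freedom. Tests were two-sided, with Benjamini-Hochberg adjustment over 19939 genes, a threshold of 0.05, and 95% intervals. A gene is called higher or lower only past that threshold, and an adjusted p comes from this fit unless an alternative or a left-out array is named beside it. The fit was tested on simulated data. The labels do not say whether the pools of a group came from separate experiments, so p-values measure only the spread between these arrays.

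The members and the gene lists were chosen with earlier results of these data known. Irf3, the isoform sets, the Sdh genes and the members with the largest differences are named. So are, in each comparison and complex, up to 3 called members per direction with the smallest p. Members named beyond these complete the account of a complex. From the other lists only some genes are named, called or not, and they do not stand for their list. Alternatives were other probeset rules, centring, filtering and variance settings, the 2 groups alone, replicate blocks, and leaving out each array. A planned description by product length was not made, since no length table was used here.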

Additional observations from a re-analysis of the deposited data

How the results depend on the processing

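Leaving out 1 array at a time gave 1 to 5 members called in WT HDM minus WT PBS, 21 to 34 in Irf3 HDM minus WT HDM and 9 to 35 in Irf3 HDM minus WT PBS, and no named member changed direction in a called value. The share of all genes that passed also moved with the array left out. Under the other settings (arrays centred on their median, mean of a gene's probesets, the dimmest genes left out, no intensity trend, robust eBayes, only the 2 groups compared) the counts were 2 to 3, 31 to 35 and 32 to 36. In the same order, the shares of all tested genes were 15.3% to 23.9%, 18.9% to 27.3% and 9.68% to 15.4%. Arrays with the same replicate number did not deviate together: the correlation of their deviations was -0.23 between WT HDM and WT PBS, 0.18 and -0.09 between Irf3 HDM and WT PBS, and -0.03 and -0.02 between Irf3 HDM and WT HDM. With the replicate number as a block, 3, 30 and 22 members were called in the 3 comparisons, beside 15.6%, 16.3% and 7.15% of all genes. A crossed pairing of the wild type arrays, chosen after seeing the data, called 4 members, 0 higher and 4 lower. Among named members outside the arrays left out, Ndufaf4 missed the threshold in Irf3 HDM minus WT HDM with centred arrays (0.34, adjusted p = 0.0720) and with the block (0.34, adjusted p = 0.124), Ndufa12 in the same comparison with centred arrays (-0.44, adjusted p = 0.0641), and Ndufaf7 in WT HDM minus WT PBS with centred arrays (-0.44, adjusted p = 0.0749) and with the 2 groups alone (-0.45, adjusted p = 0.0618); the cause was not tested. In the block, Uqcr10, Ndufb2, Ndufa9 and Ndufa12 also missed it in Irf3 HDM minus WT HDM (adjusted p 0.0629 to 0.121), and in Irf3 HDM minus WT PBS Atp5d, Atp5g3, Cox6a1 and Ndufa7 (adjusted p 0.0542 to 0.0824); there Atp5d missed it with robust eBayes too (adjusted p = 0.0770), and Atp5g3 with centred arrays (adjusted p = 0.0545). With 2 or 3 arrays per group, and values without detection calls, a difference that did not pass shows no more than that it was not detectable here.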
